A study of Homo sapiens with 2 samples.

Results

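The SOCS family comprises the suppressors of cytokine signalling SOCS1 to SOCS7 and their relative CISH. The 8 genes were selected by name, with every probe that the platform annotation assigns to them, and the choice was made with an earlier result for SOCS2 known. They have 16 of the 30113 probes with a single gene symbol and are 8 of the 20046 genes on the array. The cells were SNU216, a human gastric cancer line in long-established culture, and their RNA was read on Illumina BeadChip expression arrays. The knockdown array holds RNA of cells in which the transcription factor TEAD4 was depleted, and the control array RNA of cells with a non-silencing short hairpin RNA (shRNA). Each is 1 derived cell line on 1 array, and the labels name no further treatment, no time after shRNA delivery and no number of shRNA sequences. With 1 array per group no difference has a replicate check and none was tested. Differences between the derived lines, cultures or arrays cannot be told apart from an effect of the knockdown.

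SOCS proteins are feedback brakes on cytokine receptors. Cytokines and hormones such as IL6, interferons and growth hormone activate JAK kinases at their receptors, the JAKs phosphorylate STAT transcription factors, and STATs switch on several SOCS genes. The SOCS proteins then bind the receptors or JAKs through an SH2 domain and recruit a cullin ubiquitin ligase through the SOCS box, which gives the family its name. In gut epithelium the family is best known for limiting signalling by IL6-type cytokines and growth hormone.

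The brightest TEAD4 probe, ILMN_1705301, had a normalized log2 signal of 7.55 in the knockdown and 10.11 in the control, so the targeted transcript was 5.89-fold lower. Of the other TEAD4 probes, ILMN_2413041 was detected in the control only, which puts the knockdown at least 1.17-fold lower, and ILMN_1722824 on neither array. Here a probe counts as detected at a deposited detection p under 0.01, and normalized values are log2 signals after background correction, an offset of 16 and quantile normalization. Of all 47323 probes, with or without a gene symbol, 18648 were detected in the knockdown and 18948 in the control. A gene is represented by its brightest probe among those with a single gene symbol. Of 20046 genes, 11720 had this probe detected on at least 1 array and are called detected. Of 11 measured epithelial markers 10 were detected, with a median difference of 0.01, KRT7 lower (-0.73) and CDH1 higher (0.66).

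SOCS2 was the member that stood apart. Of the 7 detected members, 1 was higher in the knockdown by 1.5-fold or more (SOCS2), 0 were lower by that factor, and 6 differed by less. The same thresholds were reached by 7.24% (higher) and 9.20% (lower) of all 11720 detected genes. The median log2 difference of the 7 members, knockdown minus control, was 0.05, and that of all detected genes was -0.04. Of the 16 probes, 10 were detected on both arrays and 6 on neither, among them the 1 CISH probe. Since the members were chosen with the SOCS2 value known, these counts are a description.

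**Figure D1:**
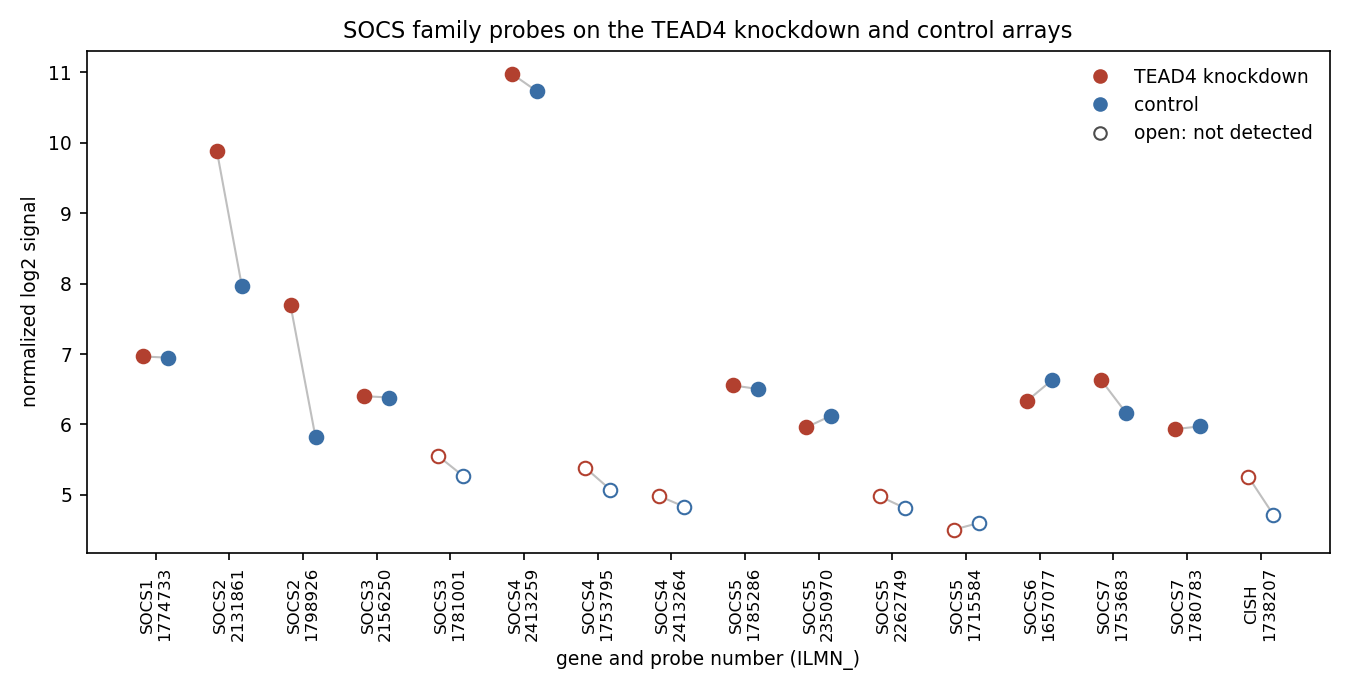
Normalized log2 signal of each of the 16 SOCS family probes on the TEAD4 knockdown array (red, left of each pair) and the control array (blue, right), with open circles for probes not detected. The pairs of both SOCS2 probes are the widest apart, at 9.89 in the knockdown against 7.96 in the control and 7.69 in the knockdown against 5.82 in the control, and the 6 undetected probes lie at the bottom on both arrays.

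SOCS2 is the brake on the growth hormone receptor, which it marks for degradation. Its brighter probe, ILMN_2131861, had a deposited signal of 893.6 in the knockdown and 242.0 in the control. Its normalized log2 signal was 9.89 in the knockdown and 7.96 in the control. This is a log2 difference of 1.92, or 3.79-fold higher in the knockdown. The dimmer probe, ILMN_1798926, had a deposited signal of 185.2 in the knockdown and 41.2 in the control, with normalized log2 signals of 7.69 in the knockdown and 5.82 in the control (difference 1.88, 3.68-fold higher). Both probes were detected on both arrays and were higher in the knockdown. Their factors lay close together after the main normalization, while the ratios of deposited signals, knockdown over control, were 3.69 for the brighter and 4.49 for the dimmer probe.

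The spread between probes of a gene was taken from all genes that allow it. In 2497 genes more than 1 probe was detected on both arrays, and between the 2 brightest of each gene the log2 difference varied with a standard deviation of 0.31 per probe. That spread is between probes read on the same 2 arrays, so it does not measure variation between cultures. In 10 of these genes (0.400%) both probes were higher in the knockdown by 2-fold or more. SOCS2 is 1 of the 10.

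Among the 10717 genes detected on both arrays, SOCS2 ranked 7 from the highest difference. It held rank 7 under each of the other normalizations tried, in which its brighter probe differed by 1.69 in the deposited normalized table, 1.79 with an offset of 50, 1.84 with median scaling and 1.92 without further background correction. The dimmer probe depended more on the treatment of background, with 1.10 in the deposited normalized table and 1.42 with an offset of 50. Genes with placeholder symbols, such as LOC numbers, count in this rank but were skipped in naming the neighbours of SOCS2. With these skipped, the genes next above were EPHA2, an ephrin receptor (2.10), and STMN3, a stathmin that destabilizes microtubules (2.20). Above these came BASP1, a membrane-attached signalling protein (2.27). Next below SOCS2 were MMP9, a secreted gelatinase (1.87), ODAPH (1.81) and SLC35G2 (1.80). This likeness rests on 1 difference between 2 arrays.

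**Figure D2:**
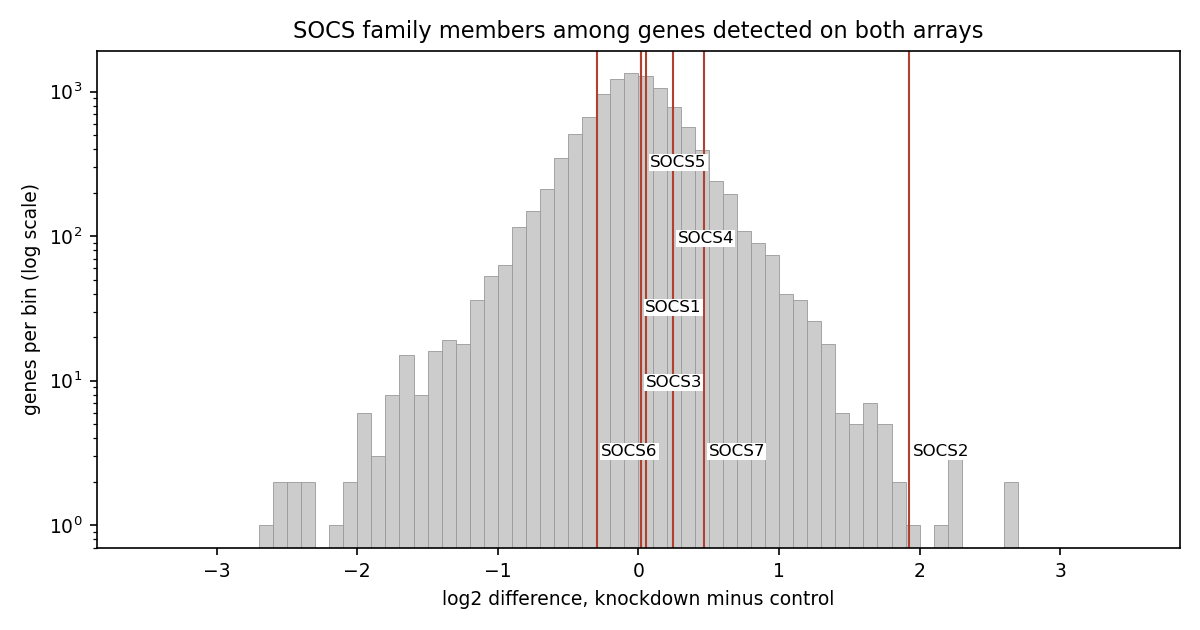
Number of genes (log scale) by log2 difference, knockdown minus control, for the 10717 genes detected on both arrays, with a red line at each of the 7 detected SOCS family members. SOCS2 lies at 1.92 in the sparse right tail, and the other 6 lie between -0.30 and 0.47 within the bulk of the genes.

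SOCS1 and SOCS3 are the strongest JAK inhibitors of the family, since both carry a kinase inhibitory region. SOCS1 is the main brake on interferon gamma signalling. Its probe, ILMN_1774733, had normalized log2 signals of 6.97 in the knockdown and 6.95 in the control (difference 0.02). SOCS3 acts on receptors that contain gp130, the shared chain of the IL6 family encoded by IL6ST. Its detected probe, ILMN_2156250, had log2 signals of 6.40 in the knockdown and 6.38 in the control (difference 0.02), and the other probe, ILMN_1781001, was not detected, with detection p of 0.0293 in the knockdown and 0.0722 in the control. The direction of both genes turned with median scaling, which gave values just under 0. Deposited signals went the other way as well, at 107.3 in the knockdown and 109.4 in the control for SOCS1, and at 67.3 in the knockdown and 69.1 in the control for SOCS3.

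CISH, the founding member of the family, is a target of STAT5 and a brake on receptors for erythropoietin and IL2. Its single probe, ILMN_1738207, had a deposited signal of 20.3 in the knockdown and -0.968 in the control, with detection p of 0.0904 in the knockdown and 0.479 in the control. It was thus not detected on either array, and no fold is given.

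RefSeq promoter windows (GRCh38.p14, 250 bases before to 50 after the start) matched 5 of the 8 members, CISH, SOCS1, SOCS3, SOCS4 and SOCS6, with 6 windows in all. They were searched on both strands for TTCNNNGAA, the gamma-activated site bound by STATs, for its wider-spaced form with 1 more base between TTC and GAA, and for GGAATG, the core of the TEAD motif. The CISH window held 4 matches to TTCNNNGAA, which begin 241, 230, 129 and 112 bases before the start. At least 1 match occurred in 7.66% of 35116 windows of 300 bases, and 4 or more in 7 windows (0.0199%). The windows of SOCS1, SOCS3, SOCS4 and SOCS6 held no match to either STAT motif. The wider-spaced one was absent from the CISH window too, while 6.44% of all windows held it. SOCS2, SOCS5 and SOCS7 had no window and were not searched for any of these motifs. Both SOCS3 windows held 1 match to GGAATG, read as CATTCC on the printed strand, as did 14.0% of all windows in at least 1 place. The other windows had no match to it. These are matches of letters, and no binding was measured.

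The 250 bases before the start are shown for CISH, whose window is dense in the STAT motif but whose transcript was not detected, and for SOCS3, whose upstream window holds the TEAD core but whose level was nearly equal on the arrays. Both genes lie on the minus strand, the CISH bases at chr3:50611775-50612024 and the SOCS3 bases at chr17:78360926-78361175, and are written 5′ to 3′ along the gene. Capitals mark TTCNNNGAA in CISH and CATTCC in SOCS3.
CISH: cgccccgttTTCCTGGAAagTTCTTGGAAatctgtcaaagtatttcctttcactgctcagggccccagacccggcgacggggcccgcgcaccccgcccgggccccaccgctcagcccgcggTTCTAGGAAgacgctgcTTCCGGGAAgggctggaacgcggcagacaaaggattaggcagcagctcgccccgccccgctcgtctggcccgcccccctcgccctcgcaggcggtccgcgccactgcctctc
SOCS3: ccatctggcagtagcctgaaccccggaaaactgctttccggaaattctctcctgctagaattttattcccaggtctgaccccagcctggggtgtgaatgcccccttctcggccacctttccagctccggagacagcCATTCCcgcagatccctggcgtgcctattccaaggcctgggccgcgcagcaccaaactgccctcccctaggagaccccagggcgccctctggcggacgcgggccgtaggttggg

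SOCS4 and SOCS5 are close relatives with long N-terminal regions that act on the EGF receptor. The detected SOCS4 probe, ILMN_2413259, had log2 signals of 10.98 in the knockdown and 10.74 in the control (difference 0.25), while ILMN_1753795 and ILMN_2413264 were detected on neither array. For SOCS5, the brighter probe ILMN_1785286 had log2 signals of 6.56 in the knockdown and 6.50 in the control (difference 0.05). The dimmer ILMN_2350970 had 5.96 in the knockdown and 6.13 in the control (difference -0.17), and the other 2 SOCS5 probes were not detected. The 2 detected SOCS5 probes thus pointed opposite ways by less than the spread per probe of 0.31.

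SOCS6 and SOCS7 are another related pair, of which SOCS6 binds the receptor tyrosine kinase KIT and SOCS7 binds the adaptor NCK1. The SOCS6 probe, ILMN_1657077, had log2 signals of 6.34 in the knockdown and 6.63 in the control (difference -0.30), the lowest of the detected members. SOCS7 was the second highest member by its brighter probe, ILMN_1753683, with log2 signals of 6.64 in the knockdown and 6.17 in the control (difference 0.47, or 1.38-fold higher). Its other detected probe, ILMN_1780783, had 5.93 in the knockdown and 5.97 in the control (difference -0.04). The SOCS7 difference was therefore seen in 1 of 2 detected probes. In the deposited normalized table it was 0.25 for the brighter probe.

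**Figure D3:**
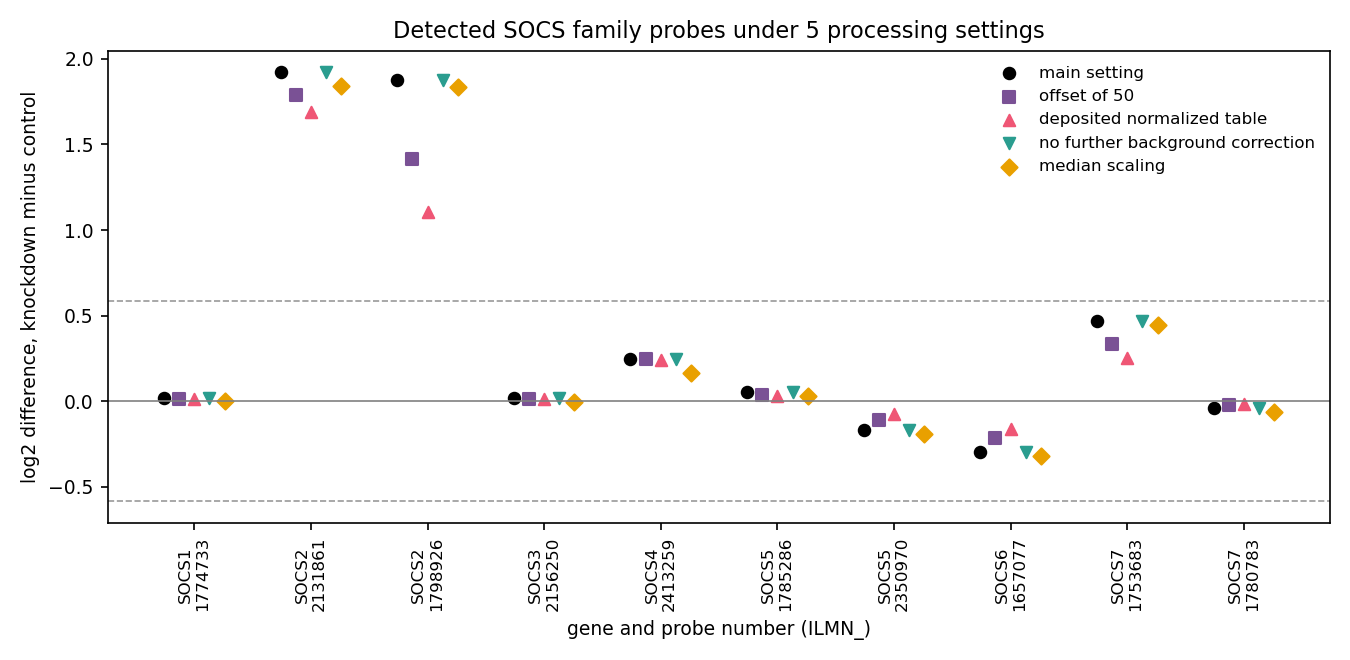
Log2 difference, knockdown minus control, of the 10 detected SOCS family probes under the main setting and 4 alternatives, with dashed lines at 1.5-fold in either direction. Both SOCS2 probes stay above the upper line under all 5 settings, the dimmer one ranging from 1.10 to 1.88, and no other probe crosses a line.

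The pathway that the family restrains was described with 8 further gene lists, which were chosen with earlier results of these data known and some of which share genes. Counts past 1.5-fold in these lists go by the normalized difference, by which 848 (7.24%) of all 11720 detected genes were higher, 1078 (9.20%) lower and 9794 differed by less. A counted gene that was detected on 1 array alone can have a bound below 1.5-fold, so the counts over genes detected on both arrays are given too. Of all 10717 genes detected on both arrays, 643 were higher and 773 lower by that factor. No gene among the 8 detected JAK kinases and STAT factors was 1.5-fold apart, and their median difference was -0.05. JAK1 had log2 signals of 8.47 in the knockdown and 7.90 in the control (difference 0.57), whereas JAK2 had 6.13 in the knockdown and 6.68 in the control (-0.55). TYK2 differed by -0.15, and JAK3 was not detected. Of the STATs that act on SOCS2 and CISH, STAT5A differed by 0.11 and STAT5B by -0.48. STAT3, the main factor downstream of IL6, differed by 0.06, or by 0.22 and 0.47 with its other detected probes. STAT4 differed by -0.38 and STAT6 by 0.05.

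Of the cytokine and hormone ligands that signal through JAKs, 12 of 33 measured were detected, and their median difference was 0.39. By the normalized difference 3 of these were past 1.5-fold higher and 1 lower, and 3 and 0 among those detected on both arrays. IL6 had log2 signals of 10.92 in the knockdown and 9.62 in the control (difference 1.30, 2.47-fold higher). IL23A, a subunit of the cytokine IL23, differed by 0.87, and IL15, which acts on T and NK cells, by 0.65. IL15 was under 1.5-fold with the mean of its probes (0.26), in the deposited normalized table (0.49) and when the offset was 50 (0.56). IL5, an eosinophil growth factor, was the member counted as lower, but it was detected in the control only and its bound is at least 1.34-fold lower in the knockdown. It was no longer counted with an offset of 50, in the deposited normalized table or with the mean of its probes. The median was 0.37 with bounds in place of the values of members detected on 1 array, and it was 0.02 over all 33 measured genes without a detection filter. In the deposited normalized table the median was 0.18.

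The receptor chains had a median difference of -0.02 over 22 detected of 39 measured genes. By the normalized difference 2 were past 1.5-fold higher and 3 lower, but among those detected on both arrays 0 were higher and 2 lower. LEPR, the leptin receptor, had log2 signals of 5.81 in the knockdown and 7.28 in the control (difference -1.47, 2.77-fold lower), but its other probe detected on both arrays differed by -0.17, so its probes disagree. EPOR, the erythropoietin receptor, had 7.85 in the knockdown and 8.81 in the control (-0.96, 1.94-fold lower). IL7R was at least 1.16-fold lower, while IL15RA was at least 1.20-fold and IL20RA at least 1.19-fold higher, each of the 3 being detected on 1 array alone. With an offset of 50 and in the deposited normalized table, likewise, 0 chains were counted as higher and 2 as lower. IL6ST, the gp130 chain bound by SOCS3, differed by 0.39. GHR and PRLR, the growth hormone and prolactin receptors on which SOCS2 is known to act, were not detected on either array, with detection p for GHR of 0.968 in the knockdown and 0.988 in the control.

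Receptors and adaptors that SOCS proteins are known to bind had a median difference of -0.15 over 16 detected genes. By the normalized difference 1 was past 1.5-fold higher and 5 lower, and 0 and 5 among those detected on both arrays. These counts go by the brightest probe. GRB2 differed by 0.13, but by 1.01 with its other detected probe, and NCK1 by -0.03, but by -0.62 with its other detected probe. Beside LEPR and EPOR, the lower genes included the insulin receptor substrates IRS1 and IRS2, while IRS4 was not detected. IRS1 had log2 signals of 9.77 in the knockdown and 10.70 in the control (difference -0.93), and IRS2 had 10.16 in the knockdown and 10.91 in the control (-0.75). INSR, the insulin receptor, was the gene counted as higher, but it was detected only in the knockdown, with a bound of at least 1.34-fold higher, and was not counted with an offset of 50 or in the deposited normalized table. IGF1R, the receptor of insulin-like growth factors and a reported binding partner of SOCS2, differed by 0.15.

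Established STAT target genes outside the family had a median difference of 0.22 over 25 detected genes, of which 6 were at least 1.5-fold higher and 2 lower, all 8 of them detected on both arrays. The shares over all detected genes were 7.24% higher and 9.20% lower. The chemokine CXCL10 had log2 signals of 6.85 in the knockdown and 5.66 in the control (difference 1.19, but 0.61 in the deposited normalized table). Its control signal passed detection narrowly (detection p 0.00936) and lay near the lowest signal of a detected control probe (5.66). The transcription factor FOS differed by 1.03, the protease inhibitor SERPINA3 by 1.00 and the interferon-responsive factor IRF1 by 0.95. HIF1A, also counted as higher, differed by 0.79, but its other detected probes ranged from -0.12 to 0.61. BCL2L1, which was not counted, differed by 0.24, but by 0.62 with its other detected probe. With the mean of all probes 5 genes were counted as higher. Lower were the interferon-induced GTPase GBP2 (-1.05) and the cyclin CCND1 (-0.64). These genes have other regulators besides STATs, and the part of STATs in their differences was not tested.

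Other brakes on the pathway and the partners of the SOCS box were read against the 9794 of 11720 detected genes that differed by less than 1.5-fold. Of 13 detected phosphatases, PIAS proteins and other brakes, CBLB, a ubiquitin ligase of receptor kinases, was the 1 gene past 1.5-fold (difference -0.85), and the median was -0.11. PTPN2 differed by -0.11 with its brightest probe, but by -0.62 with its other detected probe. None of the 11 detected cullin ubiquitin ligase partners was 1.5-fold apart, with a median of -0.03 and a range from -0.42 to 0.46. Among 16 other detected SOCS-box proteins 2 were lower, the small GTPase RAB40B (-0.83) and the substrate receptor WSB2 (-0.66), and 0 were higher, with a median of -0.03. VHL differed by 0.31 with its brightest probe, but by 0.60, past 1.5-fold, with both other detected probes. In the deposited normalized table WSB2 (-0.58) was just under the threshold, and 1 gene was counted as higher with detection at p under 0.05.

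**Figure D4:**
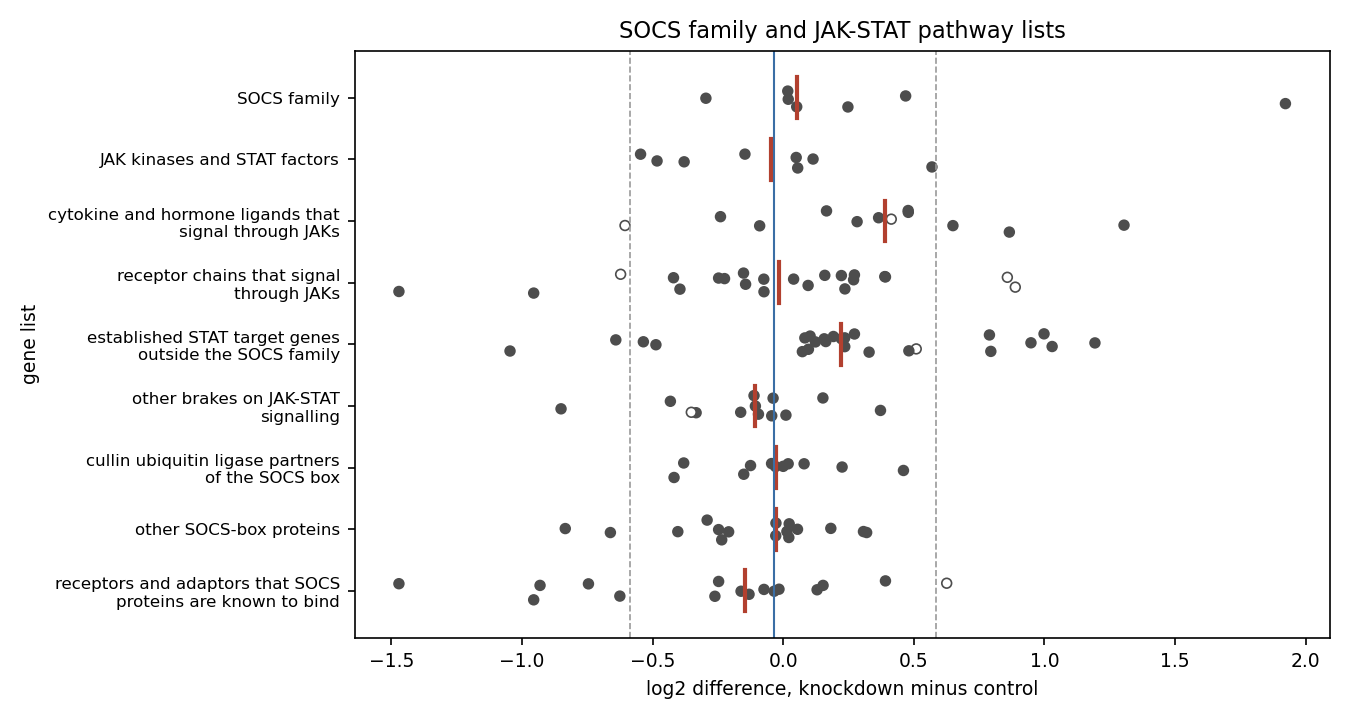
Log2 difference, knockdown minus control, of each detected gene in the SOCS family and 8 pathway lists (open points: detected on 1 array alone), with list medians in red, the median of all detected genes as a blue line and dashed lines at 1.5-fold. SOCS2 lies further right than any other gene shown, and the ligand and STAT target lists have medians of 0.39 and 0.22.

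Leukocytes also express SOCS2 and CISH, and markers of other cell types were read beside these results. Of 11 measured leukocyte markers 5 were detected, with a median difference of -0.15, or -0.11 with bounds for those detected on 1 array. CD68, a lysosomal protein, differed by 1.10, ITGAM by -0.63 and LYZ by -0.15, each on both arrays. MS4A1 was detected in the knockdown only and was higher there by at least 1.04-fold, and CD2 was detected in the control only and was lower in the knockdown by at least 1.08-fold. The other 6, PTPRC (CD45), CD14, CD3D, CD3E, FCGR3A and NKG7, were not detected on either array. Of 12 fibroblast markers 6 were detected, with a median difference of -0.47, or -0.28 with bounds for those detected on 1 array. Of the 3 detected on both arrays, FBLN1 (-1.80, or -0.94 with another detected probe) was the 1 past 1.5-fold. The other 3 have bounds, with LUM lower in the knockdown by at least 2.41-fold, DCN lower by at least 1.21-fold and COL6A3 higher by at least 1.14-fold. ESAM (-0.85) was the 1 detected of 8 endothelial markers, with log2 signals of 6.88 in the knockdown and 7.73 in the control. Whether these markers have a part in the SOCS2 difference was not tested.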

How the data were processed

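Total RNA was labelled as biotinylated cRNA with an Illumina amplification kit, per the labels' protocols. The deposited non-normalized table holds probe intensity values on a linear scale, from which a background had been subtracted, since 12895 knockdown and 12861 control probes are below 0. Next to every signal the authors deposited a detection p-value, per the file headers. A further deposited table holds intensity values that were quantile normalized (largest gap between its sorted columns 0.00186 on the log2 scale, medians 118.7 and 118.7). It keeps the rank order of the signals within each array (Spearman 1), its values are neither centred nor signed, and what else was done to them is unknown. The scanner software is not named in the labels.

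Log2 signals were computed with neqc of limma 3.58.1 in R 4.3.3, with the background inferred from the detection p-values and an offset of 16, which pulls fold changes of dim probes towards 1. The annotation gives 1 symbol for 30113 probes, several for 8 and does not list 17202. Of the 30113, 30074 matched RefSeq (GRCh38.p14) by Entrez identifier and 0 symbols changed. A gene counted as past 1.5-fold when its brightest probe differed by that much and passed detection on the brighter array. For a probe that passed on 1 array only, the fold is a lower bound, against the higher of its own dim signal and the lowest signal of a detected probe. Signals of different probes are not compared as levels. Named genes are all members with every probe, TEAD4, the detected JAKs and STATs, GHR, PRLR, IL6ST and IGF1R. In each list up to 4 genes on either side past 1.5-fold are named. The 3 genes ranked on either side of SOCS2 are named too, with placeholder symbols skipped. Other genes named as not detected were chosen after their values were seen, as were HIF1A, BCL2L1, GRB2, NCK1, VHL, PTPN2, LYZ and CD2. Members and lists were chosen with earlier results of these data known. No test between groups was run, and precision is limited by the number of arrays.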

Additional observations from a re-analysis of the deposited data

How the results depend on the processing

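SOCS2 was the 1 member past 1.5-fold under all 8 alternatives, which were an offset of 50, the deposited normalized table, no further background correction, median scaling, the mean of all probes, a detection p under 0.05, detection on both arrays and no detection filter. The median of the family ranged from 0.03 to 0.15. The dimmer SOCS2 probe moved to 1.42 with an offset of 50 and to 1.10 in the deposited normalized table, by more than the spread per probe, a tolerance chosen after the data were seen. Over all genes, 848 were higher and 1078 lower (1926 in all), against 550, 710 and 1260 with an offset of 50, and 447, 530 and 977 in the deposited normalized table. A larger offset adds the same amount to both signals and so lowers fold changes by construction. Dim signals also stand higher in the deposited normalized table. CISH is at 121.6 in the knockdown and 98.5 in the control there, against 20.3 and -0.968 in the non-normalized values. What part this has in the lower counts was not tested. Median scaling moved the median of all detected genes to -0.10. The median of the JAK and STAT list ranged from -0.15 to 0.05, that of the receptor chains from -0.07 to 0.003 and that of the epithelial markers from -0.05 to 0.01, each changing sign. No paired analysis was possible because the knockdown and the control have 1 array each, and for the same reason no replicate could be left out. Probes detected on neither array, the CISH probe among them, have no reliable signal above background here.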
